A study of Homo sapiens with 6 samples.

Results

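The focal adhesion and integrin genes described here are 49 genes, picked from the deposited count table by their gene symbols out of 60655 listed genes. They comprise 14 integrin subunits, 11 actin linkers, 4 members of the complex of ILK, PINCH and parvin, 5 scaffolds of the paxillin and zyxin type, 5 docking adaptors, 3 PIP5K lipid kinases, 5 genes of the GIT and PAK families and 2 ROCK kinases. Counts of 37 of them passed the filter on low counts, among 14507 genes that did. The remaining 12 were listed but were too low to be tested.

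RNA immunoprecipitation followed by sequencing (RIP-seq) was performed in WaGa cells, an established Merkel cell carcinoma (MCC) line that carries Merkel cell polyomavirus. The cells were labelled as wild type in genotype and received no treatment, and both groups came from this single line. In 3 libraries the RNA was brought down with an antibody to IGF2BP3, an RNA-binding protein that is active in the embryo and found again in many cancers. In the other 3 libraries a control IgG antibody was used, with replicates numbered 1 to 3 in both groups. Values are given as read counts per gene, as normalized CPM (counts relative to the library size after TMM scaling) for comparisons of a gene between libraries, and as TPM (an abundance relative to all transcripts of a library, corrected for gene length) for comparisons between genes. A level in these libraries is a share of the RNA recovered, so the amount of an RNA in the cells and the fraction of it brought down cannot be told apart. Setting IGF2BP3 IP against IgG IP asks which RNAs were recovered above the control antibody.

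Focal adhesions are plaques at the cell membrane where integrins, which are heterodimers of an alpha and a beta subunit, bind extracellular matrix outside the cell and are joined to actin filaments inside it. Talin and kindlin activate the integrins, vinculin, alpha-actinin and filamin carry the load to actin, and paxillin, BCAR1, CRK and SHC1 pass on signals that adhesion sets off. These plaques form and turn over as cells spread and migrate. IGF2BP3 binds mRNAs through its RNA-binding domains, with a known preference for CA-rich and GGC-containing elements, and affects their stability and translation.

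Counts on genes ran from 9758759 to 14886414 per library. The replicate 1 libraries stood apart in both groups, with a chi-square per degree of freedom, which is near 1 where libraries differ by sampling alone, of 18.2 to 21.9 against replicates 2 and 3 of their own group, compared with 2.2 and 3.25 between replicates 2 and 3. Of 11 MCC markers, 10 had a TPM of at least 1 in every library, and *NEUROD1* did not. Their summed TPM was 2161 to 3279 in the IgG IP and 2551 to 3391 in the IGF2BP3 IP. Of 5 fibroblast markers, *DCN* alone reached a TPM of 1 in every library and *PDGFRB* was listed at 0, with sums of 35.8 to 54.1 and 29.2 to 47.3. *PTPRC* and *CD3E* of leukocytes, *CDH5* of endothelium, *KRT14* of keratinocytes and *MLANA* and *TYR* of melanocytes were listed at 0 in all 6 libraries. The summed TPM of the whole lists, led by *KRT5* in the keratinocyte, *PMEL* in the melanocyte, *PECAM1* in the endothelial and *CD68* in the leukocyte list, reached at most 0.92, 0.27, 0.13 and 0.0 with control IgG, against 1.42, 1.06, 0.08 and 0.17 with the IGF2BP3 antibody, and the part of other cell types in the results was not tested.

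Among the 37 tested focal adhesion and integrin genes, *SHC1* and *FLNA* were enriched in the IGF2BP3 IP, and 0 were lower. Enriched here means at least 1.5-fold higher, which is 0.58 on the log2 scale, with an adjusted p (Benjamini-Hochberg over all tested genes, quasi-likelihood test of edgeR) under 0.05, and SE and CI below are the standard error and the confidence interval of the fitted log2 fold change. At these thresholds 1.16% of all tested genes were enriched and 0.0% were lower. At an unadjusted p-value under 0.05, 8 of the 37 were higher and 1 was lower, beside 1410 higher (9.72%) and 449 lower (3.1%) among all tested genes. The replicate 1 libraries of the 2 groups deviated together, whereas replicates 2 and 3 could not be matched to each other by number. Once edgeR blocked on the replicate number, 6 members were enriched (*ACTN1*, *FLNA*, *FLNC*, *PIP5K1C*, *PXN* and *SHC1*), against 3.56% of all tested genes. With DESeq2, the test named in the study's methods, 5 were enriched, the same genes without *FLNC*, against 2.22% of the 12640 genes given an adjusted p. Without both replicate 1 libraries, an alternative chosen after seeing the data, 6 of 38 tested members were enriched (*ACTN1*, *FLNA*, *FLNC*, *PIP5K1C*, *SHC1* and *TLN2*). In that fit 466 of all 14677 tested genes were enriched.

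By fitted fold change alone, without a test, 6 of the 37 were at least 1.5-fold higher, against 5.3% of all tested genes. In 12 of the 37 (32.4%), all 3 IGF2BP3 IP libraries exceeded all 3 IgG IP libraries, as was seen in 12.0% of all tested genes. In 2 of the 37 (5.41%), *ITGB1* and *LIMS1*, all 3 IGF2BP3 IP libraries fell short of all 3 IgG IP libraries, against 8.69% of all tested genes. The groups overlapped in the other 23. The log2 fold change was above 0 in 27 and below 0 in 10, with a median of 0.27, compared with a median of -0.01 and 48.9% above 0 over all tested genes. *PXN*, *FLNA*, *ACTN1*, *SHC1* and *PIP5K1C* are the members that the study drew from these same libraries for a focal adhesion term, so their values are not independent evidence for that term. Outside them, 32 members were tested. Of these, 0 were enriched, and 1 was enriched with the replicate block, against 3.56% of all tested genes. In 7 of the 32 (21.9%) all IGF2BP3 IP libraries were on top, and the median log2 fold change was 0.23. The members left out are those that DESeq2 called on these libraries. Leaving them out thus removes called members in advance, and the low counts follow in part from that choice.

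**Figure D1:**
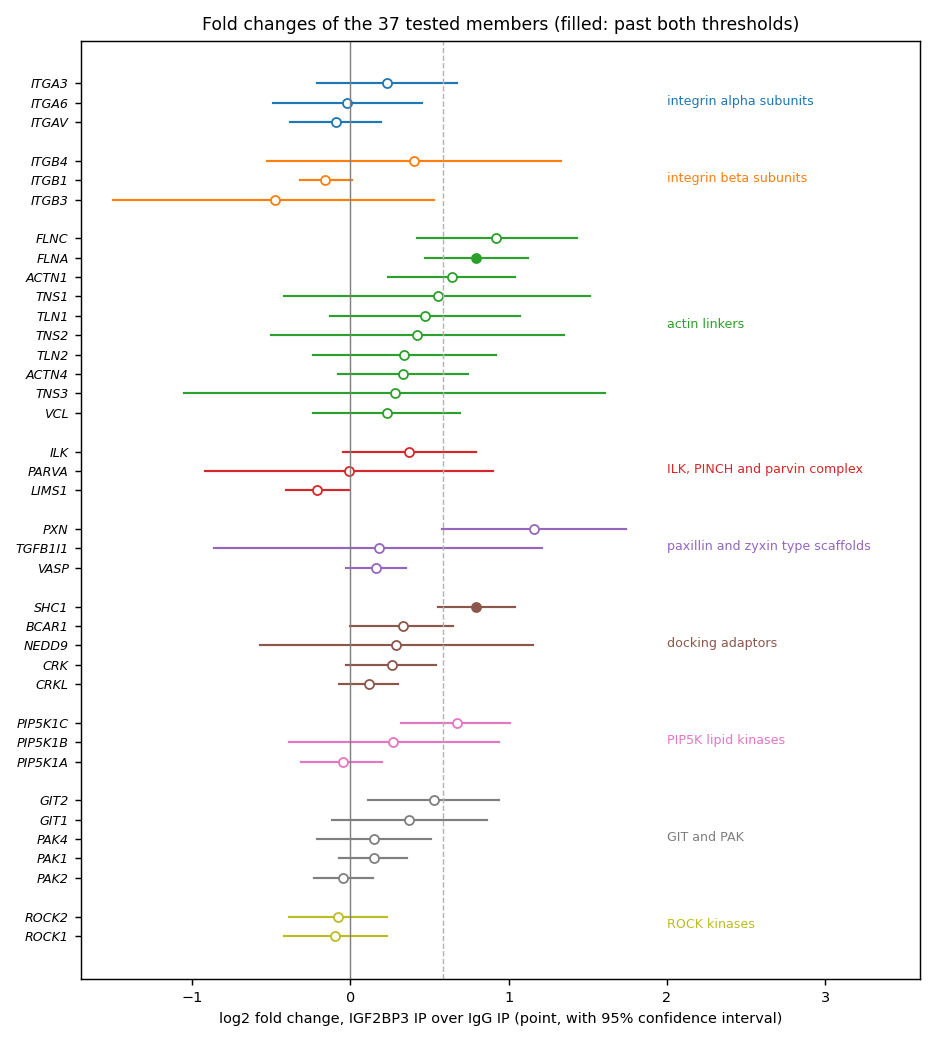
Log2 fold change of IGF2BP3 IP over IgG IP for the 37 tested genes, grouped by role, with points for the fitted value, bars for the 95% CI and a dashed line at the 1.5-fold minimum. Filled points mark *SHC1* and *FLNA*, the genes past both thresholds, and all 10 tested actin linkers have a fitted value above 0 in this fit (not *TNS2* and *TNS3* in every limma-trend fit).

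To show the RNA sequence behind the genes with the largest differences, the 30-base stretch of a single coding exon with the most CACA, a CA-rich tetramer, was read from the canonical transcripts on GRCh38 for the 6 genes at least 1.5-fold higher and for the 2 genes with the opposite order of libraries. The stretches are printed 5′ to 3′ on the strand of the gene, with each CACA in capitals. The places are chr12:120224269-120224298 for *PXN*, chr7:128854010-128854039 for *FLNC*, chr1:154968228-154968257 for *SHC1*, chrX:154352301-154352330 for *FLNA*, chr19:3642908-3642937 for *PIP5K1C*, chr14:68882898-68882927 for *ACTN1*, chr10:32910399-32910428 for *ITGB1* and chr2:108534564-108534593 for *LIMS1*. *FLNC* and *LIMS1* lie on the plus strand and the others on the minus strand.
PXN: ctcatacccaactggaaacCACACAtacca
FLNC: tgacacgcaccttCACAcgcagcagcCACA
SHC1: atcatcgccaaccacCACAtgcaatctatc
FLNA: tgggCACACACACAgtcagcgtgaagtaca
PIP5K1C: ggcgCACACAgtcgtctggacaggatggca
ACTN1: caccaacccctaCACAaccatcacgcctca
ITGB1: taaaggagaaaagaaagaCACAtgCACACA
LIMS1: tgctgggcgtggcggccgggatgaccCACA
Counting overlapping copies, the stretch of *FLNA* holds 4 CACA, that of *ITGB1* 3, those of *PXN*, *FLNC* and *PIP5K1C* 2 each, and those of *SHC1*, *ACTN1* and *LIMS1* 1 each. The best stretch held at least 1 CACA in 94.9% of the 11867 tested coding genes, at least 2 in 53.9%, at least 3 in 12.1% and at least 4 in 1.53%. Over all 30-base coding windows of these genes, 11.5% held a CACA. The search used the sense strand of the canonical transcripts, and a match is a description of letters, not a binding site.

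Of the integrin subunits, *ITGB1*, the beta subunit shared by the largest family of matrix receptors, made up nearly all of the signal. It held between 89.8% and 93.55% of the summed TPM of the 14 integrin genes in each library, with 183 ± 37.3 (SD, n = 3) TPM in the IgG IP. *ITGAV*, an alpha subunit of receptors for vitronectin and fibronectin, followed with 11.3 ± 3.81 (SD, n = 3) TPM, then *ITGA3* with 1.91 ± 0.781 (SD, n = 3) and *ITGA6* with 1.22 ± 0.485 (SD, n = 3), both alpha subunits of laminin receptors. The levels of *ITGA3* and *ITGA6* lay within the spread between replicates of each other. *ITGB3* and *ITGB4* stood at 0.283 ± 0.133 and 0.177 ± 0.121 (SD, n = 3) TPM.

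**Figure D2:**
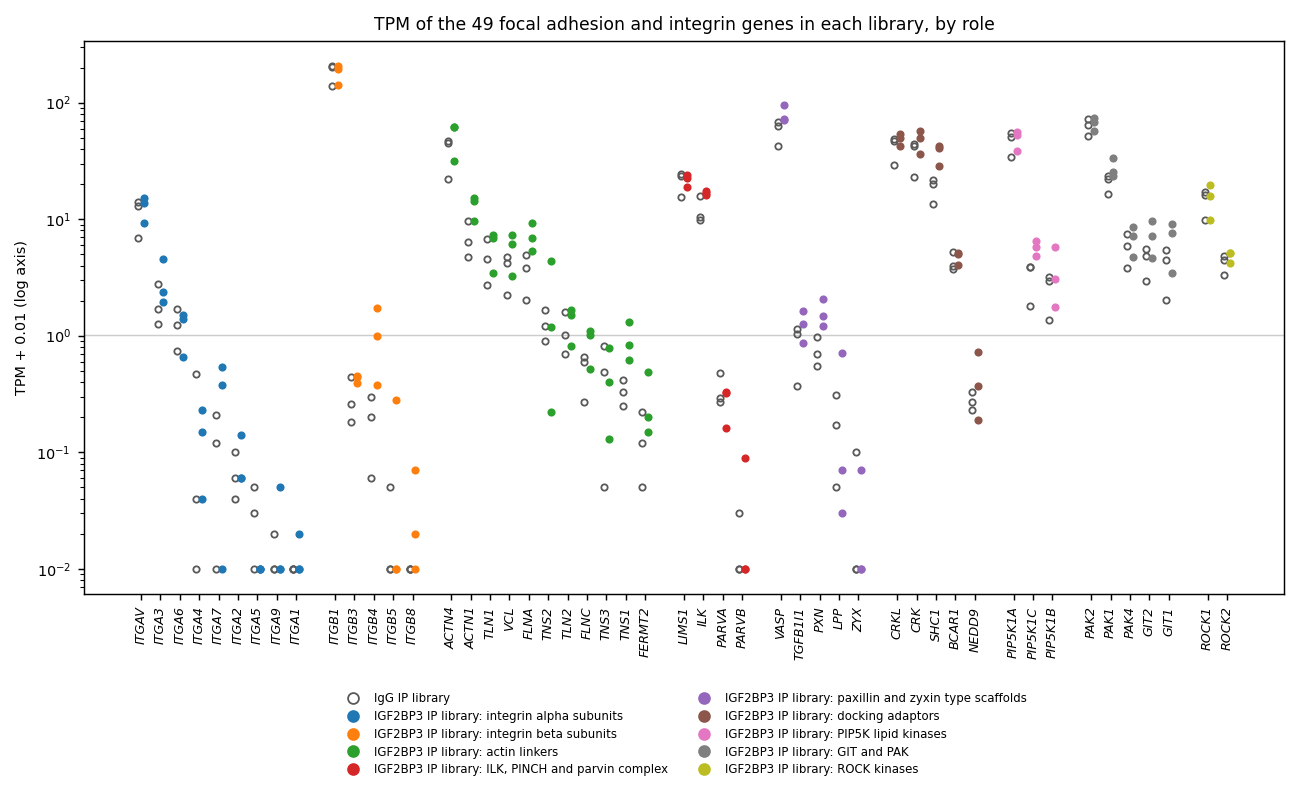
TPM plus 0.01 on a log axis for the 49 genes in each of the 6 libraries, grouped by role and ordered within a role by the mean of the IgG IP, with open circles for IgG IP and filled circles for IGF2BP3 IP libraries. *ITGB1* lies highest of all, between 139.9 and 206.9 TPM, and most other integrin subunits lie below the grey line at a TPM of 1.

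None of the 6 tested integrin subunits passed the thresholds in either direction. *ITGB1* had normalized CPM of 468.5, 484.8 and 487.8 for replicates 1 to 3 with control IgG and of 410.4, 446.5 and 437.3 for those with the IGF2BP3 antibody. All values with the IGF2BP3 antibody were thus the lower ones (exact permutation test, two-sided, p = 0.10, which is the minimum for 3 against 3 libraries). Its log2 fold change was -0.16 (SE 0.07, 95% CI -0.32 to 0.01, adjusted p = 0.44, edgeR), so the interval lay well inside a 1.5-fold change. Under the replicate block it reached an adjusted p of 0.044 at the same log2 fold change, under the 1.5-fold minimum, and with the GC correction and the replicate block it was 0.3 at -0.08.

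*ITGAV* had normalized CPM of 44.9, 54.6 and 57.2 with control IgG and of 43.9, 55.1 and 48.0 with the IGF2BP3 antibody, with overlapping groups and a log2 fold change of -0.09 (95% CI -0.38 to 0.19). The partners of *ITGB1* at laminin showed no common direction, with log2 fold changes of 0.23 for *ITGA3* (95% CI -0.21 to 0.67) and -0.02 for *ITGA6* (-0.49 to 0.45). All IGF2BP3 IP libraries of *ITGA3* lay above the IgG IP libraries, by a margin as small as 3.95 against 3.90 normalized CPM. *ITGB3*, the platelet and vascular beta subunit, had the lowest log2 fold change of all tested members, -0.48 (95% CI -1.5 to 0.53). It rested on 7, 18 and 11 counts with control IgG and on 4, 10 and 12 with the IGF2BP3 antibody, which overlap, so a 1.5-fold change was not detectable at this depth. The same held for *ITGB4*, the hemidesmosomal beta subunit, at 0.40 (-0.53 to 1.33) from 5 to 15 counts. The median log2 fold change of the 6 was -0.06. It was 0.00 with the GC correction, -0.16 with the length correction and -0.02 with library totals, and with 1 library left out it ran from -0.16 (without IGF2BP3 IP replicate 2) to 0.03 (without IGF2BP3 IP replicate 1). With limma-trend on log2(TPM + 1) or log2(TPM + 0.1), where 4 of the 6 were tested, it was 0.09 and 0.10, which is -0.03 relative to the median of all genes in both, and without a filter on TPM, where all 6 were tested, it was 0.17, which is 0.11 relative to that median.

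The other 8 integrin genes were not tested. *ITGA1*, *ITGA2*, *ITGA4*, *ITGA5*, *ITGA7*, *ITGA9*, *ITGB5* and *ITGB8* encode collagen, fibronectin, laminin and vitronectin receptor subunits and had 0 to 7 counts in each library. *ITGA5*, the fibronectin receptor subunit, had 2, 5 and 2 counts in the IgG IP and 0 in each IGF2BP3 IP library. A count of 0 in a library allows a level of up to 0.202 to 0.307 CPM, which is 3 counts of its total and covers counting error only, so no fold change is given.

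The actin linkers, which join integrins to the cytoskeleton, had fitted values above 0 in all 10 tested genes, with a median log2 fold change of 0.45, although *TNS2* stood at -0.12 with limma-trend on log2(TPM + 0.1) and *TNS3* at -0.01 without a filter on TPM and as low as -0.06 with 1 library left out. *FLNA* was the one that passed the thresholds. In 3 of the 10, *FLNA*, *FLNC* and *ACTN1*, all 3 IGF2BP3 IP libraries exceeded all 3 IgG IP libraries, against 12.0% of all tested genes. *FLNA* and *ACTN1* are among the members that the study drew from these same libraries, so this count is not independent evidence about the actin linkers. The median stayed above 0 under every alternative run, between 0.26 and 0.71, and was 0.27 with the GC correction. *FLNA* (ENSG00000196924.19, chromosome X, 154348524 to 154374634, minus strand, 48 exons in the canonical transcript) encodes filamin A, a rod-shaped crosslinker that binds integrin tails and actin. Its normalized CPM were 14.2, 18.9 and 18.9 for replicates 1 to 3 with control IgG and 27.5, 33.2 and 29.8 for those with the IGF2BP3 antibody. The groups did not overlap, and the log2 fold change was 0.79 (SE 0.14, 95% CI 0.47 to 1.12, adjusted p = 0.037, edgeR). Under the replicate block it reached an adjusted p of 1.7e-06. The call was lost with the GC correction (log2 fold change 0.58, adjusted p = 0.14), and kept when that correction was combined with the replicate block (0.59, adjusted p = 0.00013). It was also lost with limma-trend on log2(TPM + 1) (adjusted p = 0.67), without IgG IP replicate 2 (0.13) or 3 (0.13), and without replicate 2 (0.21) or 3 (0.2) of the IGF2BP3 IP, with a log2 fold change of 0.85 on the TPM scale and of 0.72 to 0.86 on the counts.

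*FLNC*, the filamin of muscle, had normalized CPM of 3.04, 3.28 and 4.19 with control IgG and of 5.21, 7.55 and 7.23 with the IGF2BP3 antibody, again without overlap. Its log2 fold change of 0.92 (SE 0.22) exceeded that of *FLNA*, but on 28 to 100 counts its adjusted p was 0.097 in edgeR, against 0.0013 with the replicate block and 0.046 without IGF2BP3 IP replicate 1. With DESeq2 the adjusted p of *FLNC* was 0.056. It was 0.28 with the GC correction and 0.014 when the replicate block was added to that. With any other single library left out it ran from 0.16 to 0.38. *ACTN1*, the non-muscle alpha-actinin of stress fibres and adhesions, had 13.9, 19.6 and 18.7 with control IgG and 21.7, 31.1 and 28.9 with the IGF2BP3 antibody. Each pair of same-numbered libraries differed by about as much, by 0.65, 0.67 and 0.62 on the log2 scale. The log2 fold change of *ACTN1* was 0.64 (SE 0.18, adjusted p = 0.15 in edgeR), and it reached an adjusted p of 3.2e-05 under the replicate block and 0.048 with DESeq2. With the GC correction it was 0.51 (adjusted p = 0.32), and 0.52 when the replicate block was added, both below the 1.5-fold minimum.

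*ACTN4*, the other non-muscle alpha-actinin, was the most abundant actin linker, at 37.9 ± 13.8 (SD, n = 3) TPM in the IgG IP. Its normalized CPM were 72.8, 105.1 and 111.6 with control IgG and 94.7, 133.5 and 136.9 with the IGF2BP3 antibody. These groups overlapped through the replicate 1 libraries, although each same-numbered pair was higher in the IGF2BP3 IP, by 0.38, 0.35 and 0.30. The log2 fold change was 0.33 (SE 0.18, adjusted p = 0.49, edgeR), and under the replicate block it reached an adjusted p of 0.00032 below the 1.5-fold minimum. The integrin activator talin gave a log2 fold change of 0.47 for *TLN1* and 0.34 for *TLN2*, and vinculin (*VCL*), which binds talin under load, 0.23. Under the replicate block the adjusted p was 0.00039 for *TLN1*, below the 1.5-fold minimum, 0.22 for *TLN2* and 0.11 for *VCL*. The same-numbered pairs of *TLN2* differed in direction, by -0.45, 0.41 and 0.84. The tensins *TNS1*, *TNS2* and *TNS3*, which bind integrin tails and actin, had 0.55, 0.42 and 0.28, each on 5 to 34 counts and with an interval that reached below -0.4. *FERMT2* (kindlin 2), with 1 to 9 counts, was not tested. Of the 9992 exon bases of *VCL*, 1109 overlap *AP3M1* on the opposite strand, which had 979 to 1621 counts. Of the 7964 of *TNS2*, 380 overlap *AC068888.1* on the opposite strand, which had 75 to 125 counts. Reads of both members are uncertain where strand was not used.

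**Figure D3:**
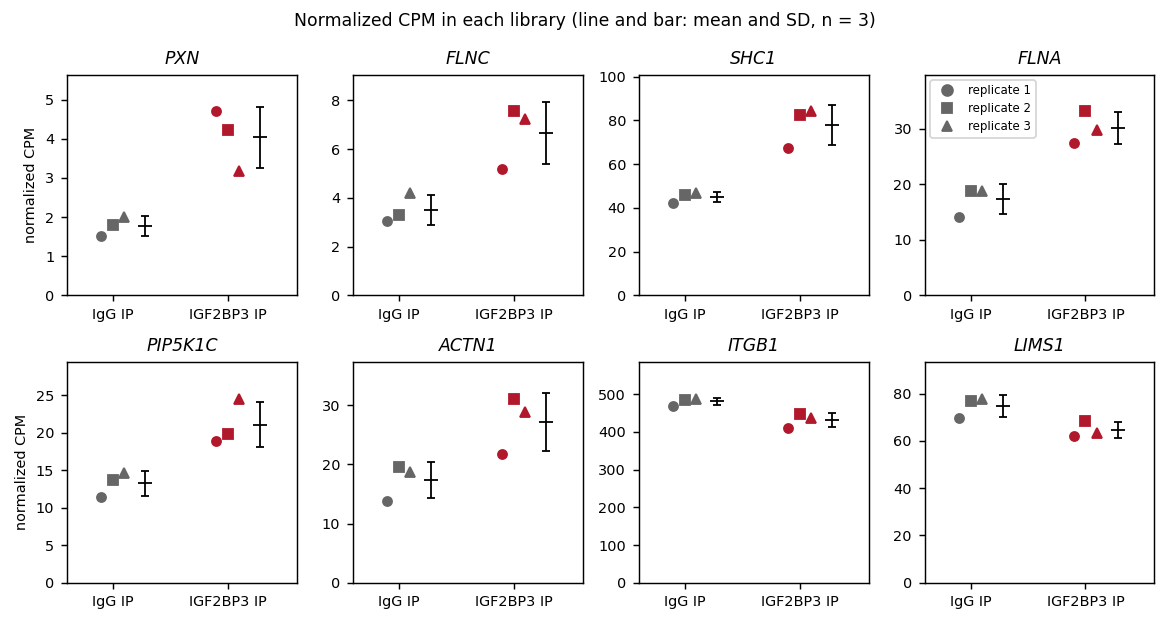
Normalized CPM of *PXN*, *FLNC*, *SHC1*, *FLNA*, *PIP5K1C*, *ACTN1*, *ITGB1* and *LIMS1* in each library, with a symbol for each replicate number and the mean with SD (n = 3) beside it. The 6 genes at least 1.5-fold higher show no overlap of the groups, and the IGF2BP3 IP libraries of *ITGB1* and *LIMS1* lie slightly below those of the IgG IP.

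In the complex of ILK, PINCH and parvin, which couples integrin beta tails to actin, the fitted values lay on both sides of 0 and none passed the thresholds. *LIMS1*, which encodes PINCH1, had normalized CPM of 69.5, 76.8 and 77.8 with control IgG and of 61.9, 68.4 and 63.5 with the IGF2BP3 antibody. All IGF2BP3 IP libraries lay lower, with a log2 fold change of -0.21 (SE 0.09, 95% CI -0.41 to -0.01, adjusted p = 0.36, edgeR), and the adjusted p was 0.037 with the replicate block, under the fold minimum. With the GC correction and the replicate block the adjusted p of *LIMS1* was 0.18 at -0.14, and with DESeq2 and the block it was 0.15. *ILK*, the pseudokinase at the centre of the complex, lay the other way, with all IGF2BP3 IP libraries above and a log2 fold change of 0.37 (SE 0.19, adjusted p = 0.46). The adjusted p of *ILK* was 0.035 with the replicate block, under the fold minimum, and 0.2 with the GC correction added. *ILK* also shares exon bases with another gene. Of its 3484 exon bases, 2374 overlap *TAF10* on the opposite strand, and whether the counting used the strand is not stated in the sources used here. *TAF10* itself had a log2 fold change of 0.23. *PARVA*, alpha-parvin, stood at -0.01 on 14 to 32 counts, and *PARVB* was not tested.

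Among the scaffolds, *PXN* had the largest log2 fold change of all tested members. *PXN* (ENSG00000089159.17, chromosome 12, 120210439 to 120265771, minus strand, 15 exons in the canonical transcript) encodes paxillin, the LIM-domain scaffold on which many focal adhesion proteins assemble. Its normalized CPM were 1.52, 1.81 and 2.02 with control IgG and 4.70, 4.23 and 3.17 with the IGF2BP3 antibody, with no overlap. The log2 fold change was 1.16 (SE 0.26, 95% CI 0.58 to 1.74), on 14 to 56 counts. The adjusted p was 0.073 in edgeR, 0.0037 with the replicate block and 0.049 with DESeq2. For *PXN* it was 0.18 with the GC correction (log2 fold change 0.98) and 0.018 when the replicate block was added to that. With any 1 library left out it ran from 0.14 to 0.3, and with limma-trend on log2(TPM + 1) it was 0.83. Of the 7460 exon bases of *PXN*, 1769 overlap *PXN-AS1* on the opposite strand, which had 74 to 118 counts and a log2 fold change of 0.26 (adjusted p = 0.65), so reads of the pair are uncertain where strand was not used.

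*VASP*, an actin filament elongator bound by zyxin, was the most abundant scaffold gene, at 58.0 ± 14.0 (SD, n = 3) TPM in the IgG IP. Its normalized CPM were 72.0, 80.6 and 82.4 with control IgG and 86.9, 86.9 and 89.5 with the IGF2BP3 antibody. The groups did not overlap, but the difference was small, with a log2 fold change of 0.16 (95% CI -0.03 to 0.35, adjusted p = 0.47, edgeR), and it was -0.03 with the GC correction. *TGFB1I1*, which encodes the paxillin relative HIC-5, had 0.18 on 5 to 14 counts, with -0.05 after the GC correction. *ZYX*, zyxin itself, had 0 to 4 counts and its relative *LPP* 4 to 11, and neither was tested.

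All 5 docking adaptors were tested and had log2 fold changes above 0, with a median of 0.29 (*NEDD9* stood at -0.00 with 1 library left out), and *SHC1* was enriched. *SHC1* (ENSG00000160691.19, chromosome 1, 154962298 to 154974395, minus strand, 12 exons in the canonical transcript) encodes an adaptor that links integrins and receptor tyrosine kinases to GRB2 and the Ras pathway. Its normalized CPM were 42.4, 45.9 and 46.8 with control IgG and 67.4, 82.4 and 84.1 with the IGF2BP3 antibody. The lowest IGF2BP3 IP library lay well above the highest IgG IP library. The log2 fold change was 0.79 (SE 0.11, 95% CI 0.55 to 1.04, adjusted p = 0.015, edgeR), from 391 to 1091 counts. It was called with the replicate block (adjusted p = 1.6e-08) and with the GC correction (0.64, adjusted p = 0.033). The call was lost with limma-trend on log2(TPM + 1) (adjusted p = 0.47), without IgG IP replicate 2 (0.089) or 3 (0.086), and without replicate 2 (0.12) or 3 (0.11) of the IGF2BP3 IP, with a log2 fold change of 0.98 on the TPM scale and of 0.72 to 0.82 on the counts. *SHC1* shares 335 of 4342 exon bases with *PYGO2* on the same strand, and the fit put *PYGO2* at 0.26 on the log2 scale (adjusted p = 0.31).

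*CRKL*, an SH2 and SH3 adaptor downstream of BCAR1, was the most abundant docking adaptor, at 41.5 ± 10.7 (SD, n = 3) TPM in the IgG IP. That level did not differ beyond the spread from the 36.5 ± 11.7 (SD, n = 3) TPM of its relative *CRK*. The normalized CPM of *CRKL* were 190.0, 221.8 and 213.3 with control IgG and 232.5, 225.1 and 219.8 with the IGF2BP3 antibody, with overlap and a log2 fold change of 0.12. The interval for *CRKL* ran from -0.07 to 0.30 and lay inside a 1.5-fold change. In *CRK* and *BCAR1*, the large scaffold phosphorylated on integrin engagement, all 3 IGF2BP3 IP libraries exceeded all 3 IgG IP libraries, with log2 fold changes of 0.26 and 0.33. Both missed the threshold in edgeR, with adjusted p-values of 0.45 and 0.39. *CRK* reached an adjusted p of 0.0054 under the replicate block, under the fold minimum, and *BCAR1* stood at 0.08 on the log2 scale with the GC correction. *NEDD9*, a relative of BCAR1, had 0.29 on 8 to 18 counts.

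The 3 type I PIP5K genes encode the kinases that make PtdIns(4,5)P2, the lipid that recruits talin and vinculin to the membrane, and their log2 fold changes ran from -0.05 to 0.67. *PIP5K1C*, whose product binds talin, had normalized CPM of 11.4, 13.7 and 14.6 with control IgG and of 18.9, 19.9 and 24.6 with the IGF2BP3 antibody. The groups did not overlap, with a log2 fold change of 0.67 (SE 0.15) and an adjusted p of 0.083 in edgeR, 0.0001 with the replicate block and 0.019 with DESeq2. After the GC correction it was 0.44, below the 1.5-fold minimum. *PIP5K1A*, the most abundant of the 3 at 46.5 ± 11.1 (SD, n = 3) TPM in the IgG IP, had 121.6, 152.6 and 159.1 normalized CPM with control IgG and 128.9, 142.7 and 146.2 with the IGF2BP3 antibody. Its groups overlapped, and the log2 fold change of -0.05 had an interval of -0.31 to 0.20. *PIP5K1B* had 0.27 (-0.39 to 0.94).

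The GIT genes encode paxillin-binding Arf GTPase-activating scaffolds, and the PAK genes encode kinases that act below RAC or CDC42. None of the 5 passed the thresholds. *PAK2* was the most abundant, at 63.3 ± 10.4 (SD, n = 3) TPM in the IgG IP, with normalized CPM of 283.7, 315.3 and 309.2 with control IgG and 276.1, 309.9 and 293.7 with the IGF2BP3 antibody. These overlapped, with a log2 fold change of -0.05 (95% CI -0.23 to 0.14). *GIT2* had the largest difference of the group, 0.53 (SE 0.18, adjusted p = 0.26, edgeR), with every IGF2BP3 IP library on top, an adjusted p of 0.0015 under the replicate block and 0.50 on the log2 scale after the GC correction. Of its 13524 exon bases, 2996 overlap *TCHP* on the opposite strand, which had 0.23. *GIT1* had a log2 fold change of 0.37, and *PAK1* and *PAK4* had 0.15 each, all with overlapping groups. For *GIT1* the adjusted p was 0.041 with the replicate block, under the fold minimum, and 0.45 with the GC correction added.

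*ROCK1* and *ROCK2* encode the kinases that RHOA activates to raise actomyosin tension on adhesions. The normalized CPM of *ROCK1* were 75.3, 94.3 and 95.3 with control IgG and 67.2, 95.5 and 85.7 with the IGF2BP3 antibody. In both groups replicate 1 was the lowest, and the groups overlapped. The log2 fold change was -0.10 for *ROCK1* (95% CI -0.42 to 0.23) and -0.08 for *ROCK2* (-0.39 to 0.23), so both intervals lay inside a 1.5-fold change. With limma-trend on log2(TPM + 1) they were 0.06 and 0.17, where the median of all genes was 0.12.

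Related members were also compared within each library by the log2 ratio of their counts, in which the size of the library cancels. Differences in GC content between the members of a pair do not cancel. The 12 pairs were set up with the values of the single genes known. *PIP5K1C* over *PIP5K1A* was higher in every IGF2BP3 IP library than in every IgG IP library, with a mean difference of 0.72. The log2 ratio was -3.42, -3.47 and -3.45 with control IgG and -2.77, -2.84 and -2.57 with the IGF2BP3 antibody. The GC content is 63.6% for *PIP5K1C* and 47.2% for *PIP5K1A*, and their log2 fold changes with the GC correction were 0.44 and -0.07. For *ACTN1* and *ACTN4*, at 55.0% and 58.6% GC, those values were 0.51 and 0.16. *ACTN1* over *ACTN4* had the same order of libraries as *PIP5K1C* over *PIP5K1A*, with a mean difference of 0.31. Its log2 ratios were -2.39, -2.42 and -2.58 with control IgG and -2.12, -2.10 and -2.25 with the IGF2BP3 antibody. For both pairs the exact two-sided permutation test gave p = 0.10, the smallest possible, and 0.51 after Benjamini-Hochberg adjustment over the 12 pairs. In the other 10 pairs the groups overlapped, among them *FLNA* over *FLNC* with a difference of -0.11, *CRK* over *CRKL* with 0.15, *GIT2* over *GIT1* with 0.15 and *ROCK1* over *ROCK2* with -0.04.

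**Figure D4:**
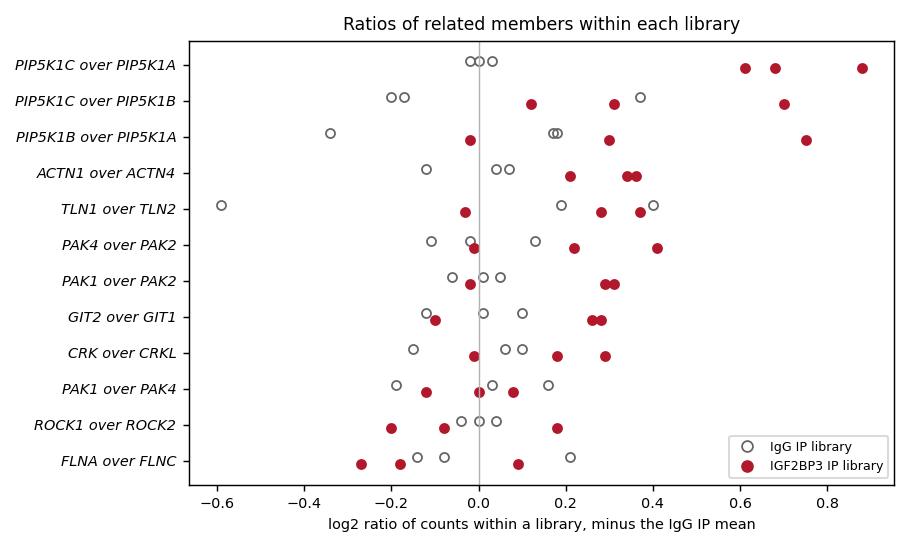
Log2 ratio of the counts of related members within each library, set to the mean of the IgG IP libraries, with open circles for IgG IP and filled circles for IGF2BP3 IP. In 2 of the 12 pairs, *PIP5K1C* over *PIP5K1A* and *ACTN1* over *ACTN4*, all 3 filled circles lie to the right of all open circles.

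The members differed in base composition, and the fold change moved with it. The canonical transcripts of the 37 tested members had a median GC content of 55.0%, against 47.72% for all tested genes and 56.4% for the 169 enriched genes. The 6 genes at least 1.5-fold higher had from 55.0% (*ACTN1*) to 63.6% (*PIP5K1C*). Of the 25 members at or above the median of all tested genes, 24 had a log2 fold change above 0, with a median of 0.37, and of the 12 below it, 3 did, with a median of -0.05. Across the 37 genes, which share the 6 libraries and are not independent replicates, the log2 fold change correlated with GC content at Pearson's r of 0.64 and Spearman's coefficient of 0.65, compared with 0.36 and 0.41 across all tested genes.

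**Figure D5:**
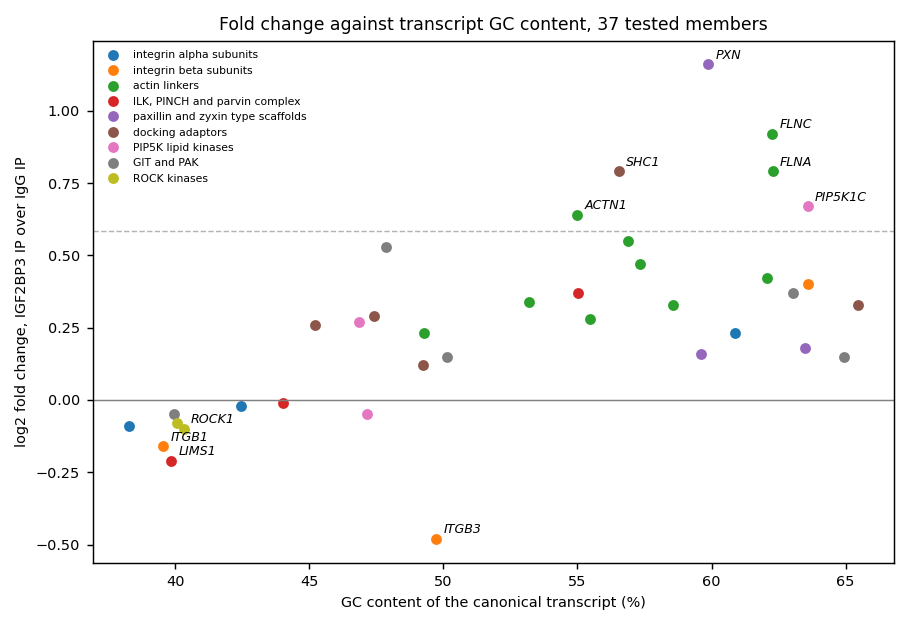
Log2 fold change of IGF2BP3 IP over IgG IP against the GC content of the canonical transcript (percent) for the 37 tested members, coloured by role, with a dashed line at the 1.5-fold minimum. The 6 genes above the line lie between 55.0% and 63.6% GC, and *ITGB1*, *LIMS1* and *ROCK1* lie near 40%.

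With GC content corrected in each library, *SHC1* was the member called, against 0.566% of all genes tested in that fit, and the median log2 fold change of the members was 0.15. With the GC correction and the replicate block 4 were called (*FLNA*, *FLNC*, *PXN* and *SHC1*), against 1.86% of all. The density of GGC was 21.0 per kb of transcript in the members and 16.4 in all tested genes, and that of CACA 4.87 and 4.30 per kb (medians). Across the 37 members the log2 fold change correlated with GGC density (Pearson's r of 0.60, Spearman's coefficient of 0.68) and with CACA density (0.43 and 0.46), and hardly with transcript length (0.08 and 0.05). Across all tested genes the same values were 0.29 and 0.35 for GGC, 0.13 and 0.17 for CACA and 0.15 and 0.20 for length. GGC density and GC content share letters, and their separate parts in the fold changes were not tested.

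Around the members, 139 further genes of the pathway were followed in 4 lists, of which 94 were tested, 0 were enriched and 0 were lower in edgeR's quasi-likelihood test. At an unadjusted p-value under 0.05, 16 were higher and 2 lower, against 9.72% and 3.1% of all tested genes. The median log2 fold change was 0.17 for 17 tested genes of other integrins and adhesion plaque proteins, 0.22 for 11 matrix ligands and 0.04 for 38 genes of kinase and survival signalling. With the replicate block 4 of the 94 were enriched, against 3.56% of all tested genes, and with DESeq2 3, against 2.22%. The 4 were picked out after their values were seen. *SRC*, the kinase that phosphorylates focal adhesion proteins, stood at a log2 fold change of 1.04 (SE 0.21, adjusted p = 0.056, and 3.4e-06 with the replicate block). *IGF1R*, the insulin-like growth factor receptor, had 0.89 (adjusted p = 0.11, and 2.3e-07 with the block), *PRKCB*, a protein kinase C, 0.89 (0.068 and 0.0001), and *AGRN*, a basement membrane proteoglycan, 0.86 (0.093 and 0.01). The first 3 of these were drawn by the study from the same libraries for its focal adhesion term. *PTK2*, which encodes focal adhesion kinase, had 275 and 275 mean normalized CPM in the IgG IP and the IGF2BP3 IP and a log2 fold change of -0.00 (SE 0.07).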

How the data were processed

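RIP-seq libraries from WaGa cells, 3 from IGF2BP3 IP and 3 from IgG IP, were grouped and numbered by their labels. The authors used STAR (version 2.7.9a) on GRCh38, then RSEM on GENCODE version 37, and deposited unnormalized counts of reads per gene in whole numbers, and TPM values scaled to gene length and library. The FPKM values, the same estimates on another scale, were not used. Whether the table of whole-number counts also came from RSEM, and whether strand was used, are not given in the sources used here.

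Low counts were removed by filterByExpr, TMM factors were applied, and edgeR 4.0.16 under R 4.3.3 gave a quasi-likelihood test of condition alone, with Benjamini-Hochberg adjustment over all tested genes. The biological coefficient of variation was 13.4%. The series describes the replicates as independent, and p-values measure the spread between these libraries. The intervals of fold changes include the spread between libraries, and the limits for a count of 0 cover counting error only. Deviations from the group means correlated at 0.568, 0.277 and 0.231 in same-numbered libraries of replicates 1 to 3. Between replicates 2 and 3, libraries of unlike number correlated about as well, at 0.277 and 0.269. The number thus paired the replicate 1 libraries only. The replicate block used every number as given. Its adjusted p-values therefore rest in part on an arbitrary match of replicates 2 and 3.

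The members, the 4 pathway lists and the paralogue pairs were chosen with earlier results of these data known. Values in every library are given for members past the thresholds, those the study lists under its focal adhesion term, the 3 highest and 3 lowest log2 fold changes and the most abundant member of each role. The alternatives were DESeq2 1.42.0, limma 3.58.1 (limma-trend) on TPM with a pseudocount of 1 or 0.1 (at least 1 TPM in 3 libraries), other scaling and filters, the replicate block, loess corrections (span 0.5) for GC content and length, and leaving out libraries. Sequence features and coordinates came from GENCODE version 44 canonical transcripts on GRCh38, with 60437 of 60655 identifiers matched. Tested on simulated data with 14273 genes, the edgeR fit recovered 98.5% of 200 changed genes with 15 false calls. The share recovered at the counts and fold changes of the members was not tested. A leukocyte marker and the median of a pathway list are not reported here.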

Additional observations from a re-analysis of the deposited data

How the results depend on the processing

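Against 169 enriched and 0 lower genes in all, 2 enriched members and 0 enriched genes of the other pathway lists, the counts moved with the test. In that order they were 281, 0, 5 and 3 with DESeq2, 321, 1, 4 and 3 with DESeq2 and the replicate block, 517, 15, 6 and 4 with the replicate block in edgeR, 359, 1, 6 and 3 without a filter, 82, 0, 1 and 0 after GC correction, 269, 37, 4 and 3 after GC correction under the replicate block, 141, 0, 2 and 1 after length correction, and 398, 26, 4 and 4 after length correction under the replicate block. With limma-trend on log2(TPM + 1), log2(TPM + 0.1) and log2(TPM + 1) without a filter they were 3, 0, 0 and 0, again 3, 0, 0 and 0, and 0, 0, 0 and 0, with 5, 4 and 7 members higher at an unadjusted p-value under 0.05 (of 30, 30 and 49 in the fit, against 5.53%, 5.48% and 4.02% of all genes), and the median of all genes stood at 0.12, 0.13 and 0.06. RLE factors, library totals, at least 10 counts in every library and no fold change minimum kept 2 members, *FLNA* and *SHC1*. Leaving out 1 library gave 0 to 244 enriched genes, 0 to 3 members and 0 to 4 other pathway genes. The number of members was 0 without IgG IP replicate 2 or 3 or IGF2BP3 IP replicate 2 or 3, where 6 or 7 of 37 or 38 were higher at an unadjusted p-value under 0.05, against 6.58% to 8.43% of all genes. Without both replicate 1 libraries, a setting chosen after seeing the data, there were 466 enriched and 8 lower genes of 14677 tested. Enriched were 6 of 38 tested members (*ACTN1*, *FLNA*, *FLNC*, *PIP5K1C*, *SHC1* and *TLN2*) and 6 other pathway genes.

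Of the single members, none changed sign with a call. With limma-trend in the order above, *ITGAV* stood at 0.19, 0.21 and 0.19, *LIMS1* at 0.06, 0.06 and 0.06, *PIP5K1A* at 0.09, 0.09 and 0.09, *PAK2* at 0.07, 0.07 and 0.07, *ROCK1* at 0.06, 0.07 and 0.06 and *ROCK2* at 0.17, 0.21 and 0.17. *TNS2* was at -0.12 with log2(TPM + 0.1), and *ITGB3* at 0.15 and *TNS3* at -0.01 without a filter. With the GC correction, without and with the replicate block, *ITGA6* was at 0.02 and 0.03, *PARVA* at 0.01 and 0.06, *TGFB1I1* at -0.05 and -0.02, *VASP* at -0.03 and -0.03, *PAK2* at 0.02 and 0.02 and *PAK4* at -0.09 and -0.09. *PARVA* was at 0.03 and *ITGA6* at 0.02 with library totals, and *PARVA* at 0.00 with at least 10 counts and at 0.04 with the replicate block alone. With 1 library left out, *ITGA6* ran from -0.13 to 0.11, *TNS3* from -0.06 to 0.75, *PARVA* from -0.36 to 0.37, *TGFB1I1* from -0.19 to 0.60, *NEDD9* from -0.00 to 0.45, *PIP5K1A* from -0.16 to 0.03, *PIP5K1B* from -0.01 to 0.47, *ROCK1* from -0.22 to 0.03 and *ROCK2* from -0.19 to 0.00. The causes were not tested. The fit without both replicate 1 libraries, in which *TLN2* was also called, is left aside here. Calls were lost in 15 combinations of gene and setting (*FLNA* and *SHC1*) and gained in 18 (*FLNC*, *ACTN1*, *PXN* and *PIP5K1C*). The replicate block changed no call of the other tested members.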

Other observations

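The 4 lists of further pathway genes also held RNAs of the cytoskeleton far more abundant than most members. The actins *ACTB* and *ACTG1* had mean TPM of 644.5 and 597.4 in the IgG IP, the GTPases *RHOA*, *CDC42* and *RAC1* had 486.4, 298.0 and 187.8, and *ENAH*, an actin filament elongator related to VASP, had 98.2. Their log2 fold changes were small, with 0.16 for *ACTB*, 0.10 for *ACTG1*, 0.10 for *RHOA*, -0.13 for *CDC42*, 0.08 for *RAC1* and -0.05 for *ENAH*, and none passed the thresholds of edgeR's quasi-likelihood test. *MYH10*, the heavy chain of non-muscle myosin IIB, had a higher value of 0.56 (SE 0.11, adjusted p = 0.054, and 0.00036 with the replicate block), just under the 1.5-fold minimum, while its relative *MYH9* stood at -0.08 (SE 0.24). Of the 31 matrix ligands, 11 were tested, among them *LAMB1* at 0.22 and *THBS1* at 0.06. These genes were named after their values were seen.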
